A study of Homo sapiens with 12 samples.

Results

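The genes described here encode the subunits of the proteasome, its assembly chaperones and its activators: the members of the PSMA, PSMB, PSMC, PSMD and PSME families, with the beta subunits of the constitutive core and without those of the immunoproteasome. Members were chosen by gene symbol in the annotation of the array, with 1 probe set per gene, the one of highest mean log2 signal among those annotated to a single gene. This gave 33 genes of the 11548 tested. PSMA6 and PSME2 were read only by probe sets that the annotation gives to several genes, and they were left out. Some other subunits were not analysed here, so the groups below are not complete. All 33 members passed the filter on low signal, with mean signals over the 12 arrays of 523 for PSMD3 to 3503 for PSMB4.

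The proteasome is the protease that takes apart proteins tagged with ubiquitin. Its core is a barrel of alpha rings, which form the gate, around beta rings, which hold the cutting sites; a regulatory particle binds tagged proteins, unfolds them with a ring of ATPases and strips off ubiquitin. In B cells it also acts inside NF-kB signalling, where it degrades the kinase NIK once TRAF3, TRAF2 and their partner ligases have tagged it, and trims the p100 precursor of the alternative pathway once NIK is active, and its core is the target of the drug bortezomib in mantle cell lymphoma.

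RNA came from Z-138 and Maver-1, established human mantle cell lymphoma lines, which are malignant B cells; the labels give a TRAF2 nonsense mutation for Z-138 and a TRAF3 deletion for Maver-1. Cells of each line carried 1 of 3 doxycycline-inducible short hairpins under puromycin selection: NIKsh#1 or NIKsh#2, both against MAP3K14, the gene of NIK, or a non-targeting control, NTC. Each of these 6 cultures was split and kept for 7 days with 100 ng/ml or 0 ng/ml doxycycline, and each arm gave 1 array, so that every line held 2 NIKsh arrays and 1 NTC array at each dose. Every NTC group is therefore a single array, the NIKsh replicates differ in hairpin, and a p-value here speaks of variation among these cultures alone. The labels name no separate repeat of any culture.

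The values were MAS5 signals, a linear intensity per probe set that the authors had scaled to a common trimmed mean of 150.02 per array, and the small number of arrays limits their precision. Changes are given as log2 differences of signal + 3 with standard errors from limma, a linear model with pooled variance, and a gene was called at an adjusted p under 0.05 over all 11548 genes (Benjamini-Hochberg, two-sided). The 7 B cell and mantle cell lymphoma markers measured summed to signals of 6552 to 10768 on the Z-138 arrays and 8873 to 10993 on the Maver-1 arrays. The sums were 83.8 to 214 on Z-138 arrays, against 15.6 to 29.3 on Maver-1 arrays, for 6 T and NK cell markers. They were at most 30.6 and 32.4 for 5 monocyte markers, and 67.7 to 418 and 789 to 1118 for 6 stromal, epithelial and endothelial markers. CD3G (56.6 to 178) and PECAM1 (44.8 to 397) in Z-138, and PECAM1 (550 to 929) and EPCAM (173 to 314) in Maver-1, were the highest outside the B cell list, while CD3D lay between 0.6 and 8.3 on the 12 arrays. PECAM1, an adhesion protein of endothelial and blood cells, had 102, 44.8 and 397 with doxycycline, against 203, 279 and 234 without it, in Z-138 NIKsh#1, NIKsh#2 and NTC, and fell in the Z-138 NIKsh cultures (-1.77, limma, adjusted p = 0.0237); its part in the results was not tested. MAP3K14 had signals of 33.3, 49.2 and 55.4 with doxycycline, against 55.2, 52.0 and 46.4 without it, in Z-138 NIKsh#1, NIKsh#2 and NTC. In the same cultures of Maver-1 it had 63.4, 55.7 and 133 with doxycycline, against 86.9, 79.3 and 77.2 without it. It was lower with doxycycline in all 4 NIKsh cultures and higher in both NTC cultures, and its mean NIKsh change of -0.42 ± 0.18 did not pass (limma, adjusted p = 0.529). The 3′ to 5′ signal ratio of the ACTB control probe sets, a sign of RNA integrity and amplification, was higher with doxycycline in all 3 Z-138 cultures, at 4.62, 5.09 and 6.34 against 2.86, 2.92 and 2.33 in NIKsh#1, NIKsh#2 and NTC. In Maver-1 it was 4.32, 3.80 and 4.43 with doxycycline, against 4.68, 3.66 and 6.88 without it. Its part in the results below was not tested.

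Promoter sequences are shown for PSMD2, PSMB5, PSMD1 and PSME4, the members with the highest doxycycline changes in Z-138, and for PSMC3, the member with the lowest. Each is the 250 bases before the transcription start in RefSeq on GRCh38.p14, written 5′ to 3′ on the gene's strand. Capitals mark 3 motifs on either strand: TGACNNNGC, the core of the antioxidant response element that the factors NFE2L1 and NFE2L2 bind, the CCAAT box, and the GC box GGGCGG. A capital run longer than a motif holds overlapping copies.
PSMD2 (chr3:184298991-184299240, plus strand): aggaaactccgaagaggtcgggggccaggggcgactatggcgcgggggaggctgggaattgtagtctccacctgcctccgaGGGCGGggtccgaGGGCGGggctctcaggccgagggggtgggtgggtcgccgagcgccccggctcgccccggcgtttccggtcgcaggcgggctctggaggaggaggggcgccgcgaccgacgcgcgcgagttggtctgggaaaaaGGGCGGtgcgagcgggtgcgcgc
PSMB5 (chr14:23035221-23035470, minus strand): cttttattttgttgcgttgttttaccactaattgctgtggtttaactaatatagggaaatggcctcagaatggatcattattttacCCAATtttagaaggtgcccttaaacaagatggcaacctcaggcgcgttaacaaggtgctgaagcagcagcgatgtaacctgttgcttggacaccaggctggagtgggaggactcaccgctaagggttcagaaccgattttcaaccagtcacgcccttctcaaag
PSMD1 (chr2:231056617-231056866, plus strand): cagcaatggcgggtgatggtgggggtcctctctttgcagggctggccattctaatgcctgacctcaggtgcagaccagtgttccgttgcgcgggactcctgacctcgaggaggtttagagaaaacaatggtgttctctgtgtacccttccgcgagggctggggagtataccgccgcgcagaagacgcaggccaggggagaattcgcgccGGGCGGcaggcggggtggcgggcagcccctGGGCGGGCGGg
PSME4 (chr2:53970994-53971243, minus strand): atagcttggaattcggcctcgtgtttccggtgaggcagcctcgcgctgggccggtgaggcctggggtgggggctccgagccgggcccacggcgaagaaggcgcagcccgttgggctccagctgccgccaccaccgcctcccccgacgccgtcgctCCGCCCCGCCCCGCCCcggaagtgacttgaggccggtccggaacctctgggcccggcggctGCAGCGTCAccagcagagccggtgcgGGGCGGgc
PSMC3 (chr11:47426440-47426689, minus strand): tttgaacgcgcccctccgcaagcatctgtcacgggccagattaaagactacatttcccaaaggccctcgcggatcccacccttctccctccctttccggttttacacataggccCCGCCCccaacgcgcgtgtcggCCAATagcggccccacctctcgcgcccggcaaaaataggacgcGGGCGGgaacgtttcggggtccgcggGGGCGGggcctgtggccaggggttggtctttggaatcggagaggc
PSME4 alone of these windows held TGACNNNGC, as its reverse complement, beside 4 GC boxes. PSMD1 and PSMD2 held 3 GC boxes each and neither of the other motifs. PSMC3 held 3 GC boxes and 1 CCAAT box, and PSMB5 held 1 CCAAT box. RefSeq gives another start each for PSMD2 and PSMB5, whose windows, not shown, held none of the 3 motifs.

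A promoter entry was at hand for 28 of the 33 members. TGACNNNGC was in 8 of these 28 (28.6%), against 13.2% of 27305 genes with a window of the same length. CCAAT was in 14 (50.0%), against 37.0% of all genes, and GGGCGG in 17 (60.7%), against 46.2%. A gene counted if any of its windows held the motif. The 27305 genes were not limited to those tested on the arrays, whereas all members passed the filter on signal. These are matches of letters in the window, and no binding was measured.

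The untreated cultures were compared between the lines. Their ACTB 3′ to 5′ ratio was 2.33 to 2.92 in Z-138 and 3.66 to 6.88 in Maver-1. The same ratio of the GAPDH control probe sets was 1.15 to 1.30 and 1.54 to 2.39. The part of these ratios in the differences between the lines was not tested. In Z-138 cultures 6 members were higher and 13 lower than in Maver-1 cultures, 19 of 33 (limma, adjusted p under 0.05, 3 cultures per line). Of all genes tested 60.2% differed between the lines, 25.5% higher and 34.8% lower, so the members' share was near the background. At an unadjusted p under 0.05 there were 21 members, against 64.3% of all genes. The median difference, Z-138 minus Maver-1, was -0.09 over the members and -0.08 over all genes, and the median size of the difference was 0.23 over the members and 0.43 over all genes. With each array centred on the median of its log2 signals, which moved the median difference of all genes to 0.04, the median of the members was also 0.04 and the split became 10 higher and 8 lower. In RNA of a whole culture, fewer cells that express a gene and less RNA per cell cannot be told apart.

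**Figure D1:**
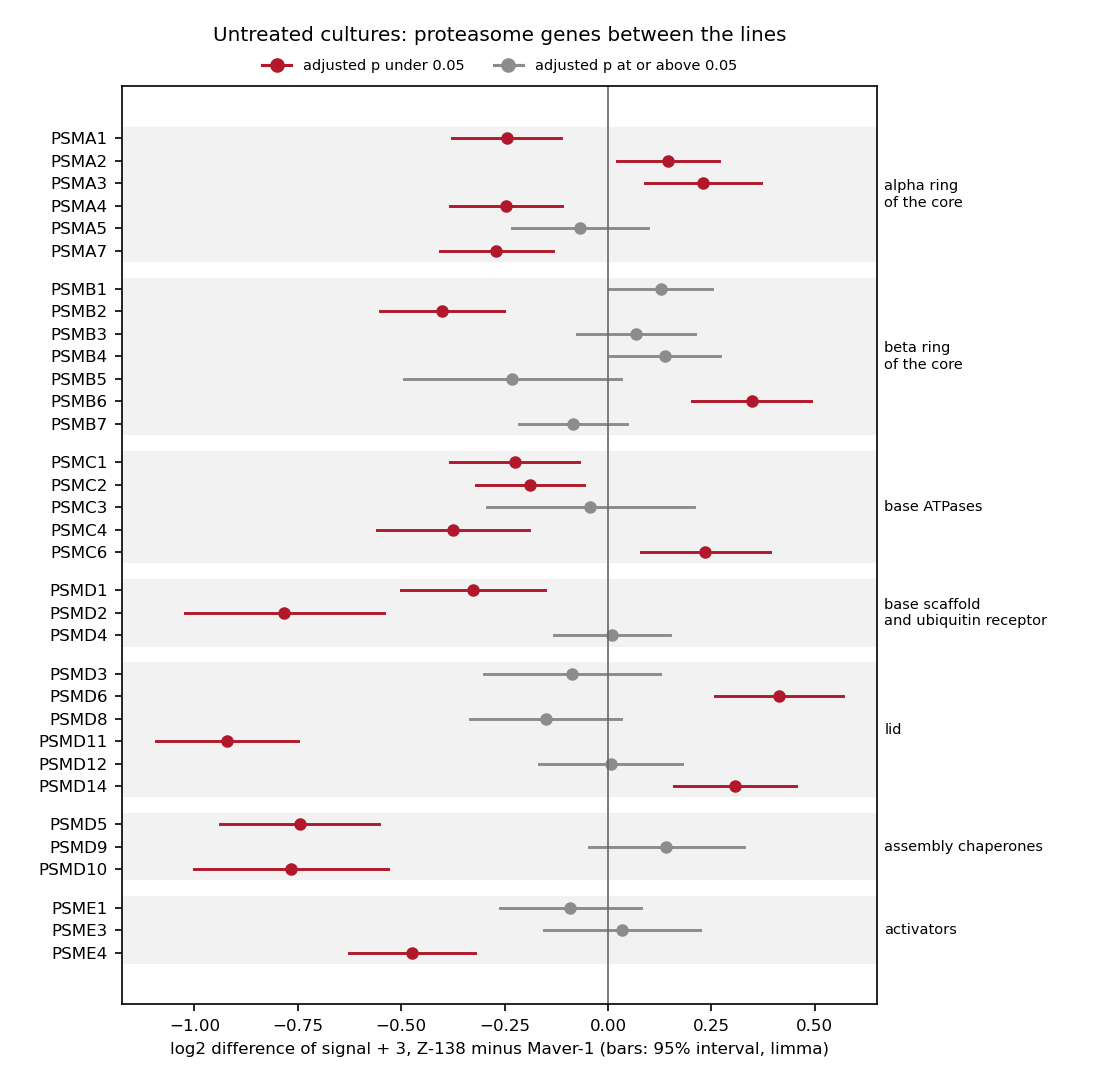
Difference of each of the 33 proteasome genes between the untreated Z-138 and Maver-1 cultures (3 each), as log2 of signal + 3, Z-138 minus Maver-1, with 95% intervals from limma and genes grouped by role. Red marks the 19 genes at an adjusted p under 0.05; PSMD11, PSMD2, PSMD10 and PSMD5 lie farthest to the left, at -0.92 to -0.75.

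In the alpha ring, PSMA2 and PSMA3 were higher in Z-138 and PSMA1, PSMA4 and PSMA7 lower. PSMA3 had untreated signals of 2534, 2567 and 2549 in Z-138, against 2044, 2347 and 2140.2 in Maver-1, in the order NIKsh#1, NIKsh#2 and NTC (log2 difference 0.23 ± 0.06, adjusted p = 0.00772). PSMA7 had 1766, 1745 and 1712 in Z-138, against 2002, 2123 and 2178 in Maver-1 (-0.27 ± 0.06, adjusted p = 0.00246). The lines did not overlap for either gene. PSMA2 differed by 0.15 ± 0.06, PSMA1 by -0.24 ± 0.06 and PSMA4 by -0.25 ± 0.06, while PSMA5 did not pass at -0.07 ± 0.08.

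Among the beta subunits, PSMB6, which carries the caspase-like site, had signals of 1722, 1656 and 1755 in Z-138, against 1319, 1364 and 1348 in Maver-1 (0.35 ± 0.07, adjusted p = 0.000522). PSMB2, a subunit without a cutting site, had 1744, 1775 and 1992 in Z-138, against 2382, 2538 and 2352 in Maver-1 (-0.40 ± 0.07, adjusted p = 0.000244). Z-138 was thus higher for PSMB6 and lower for PSMB2, without overlap between the lines. PSMB5, the chymotrypsin-like site that bortezomib binds, did not pass at -0.23 ± 0.12 (95% interval -0.49 to 0.03), nor did PSMB7, the trypsin-like site, at -0.08 ± 0.06. PSMB1, PSMB3 and PSMB4 lay between 0.07 and 0.14 and did not pass.

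Of the 5 ATPases of the base that were measured here, 1 was higher and 3 were lower in Z-138. PSMC4 had signals of 792, 797 and 923 in Z-138, against 1078, 1112 and 1061 in Maver-1 (-0.37 ± 0.09, adjusted p = 0.00196). PSMC6 had 1757, 1653 and 1747 in Z-138, against 1356, 1488 and 1539.7 in Maver-1 (0.24 ± 0.07, adjusted p = 0.0125). This difference did not pass without the Maver-1 NIKsh#1 array (adjusted p = 0.0698) or in a limma fit without the variance trend (adjusted p = 0.0596). PSMC1, whose tail opens the gate of the core, differed by -0.23 ± 0.07 and PSMC2 by -0.19 ± 0.06, and both were lower in every Z-138 culture than in every Maver-1 culture. Other probe sets of PSMC2 gave 0.09 and -0.23. PSMC3 did not pass at -0.04 ± 0.12.

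The scaffold subunits of the base were lower in Z-138. PSMD2, a platform that docks ubiquitin shuttles and the deubiquitinase USP14, had 1198, 1111 and 846 in Z-138, against 1739.9, 1718 and 1924 in Maver-1 (-0.78 ± 0.11, adjusted p = 4.6e-05). PSMD1, the other large scaffold, had 1769.7, 1712 and 1481 in Z-138, against 1931, 2088 and 2199 in Maver-1 (-0.33 ± 0.08, adjusted p = 0.00334). For both genes the Z-138 NTC culture was the lowest of the 6. The ubiquitin receptor PSMD4 did not pass at 0.01 ± 0.07.

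In the lid, PSMD11, which clamps the lid to the base and core, was lowest in Z-138 relative to Maver-1, at 776, 704 and 763 in Z-138, against 1350.0, 1466 and 1439 in Maver-1 (-0.92 ± 0.08, adjusted p = 4.2e-07). Its other probe set pointed the other way, with a difference of 0.48, so the direction for this gene rests on the probe set used. PSMD6, a lid scaffold, had 1455, 1436 and 1457 in Z-138, against 1093, 1039 and 1132 in Maver-1 (0.41 ± 0.07, adjusted p = 0.000229). PSMD14, the deubiquitinase of the lid, had 2497, 2336 and 2655 in Z-138, against 1945, 1967 and 2136 in Maver-1 (0.31 ± 0.07, adjusted p = 0.00168). Both were higher in every Z-138 culture than in every Maver-1 culture. PSMD3, PSMD8 and PSMD12 did not pass, at -0.09 ± 0.10, -0.15 ± 0.08 and 0.01 ± 0.08.

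Of the 3 base assembly chaperones, PSMD10, also called gankyrin, had 452, 388 and 466 in Z-138, against 703, 694 and 833 in Maver-1 (-0.77 ± 0.11, adjusted p = 4.3e-05). PSMD5 had 739, 629 and 712 in Z-138, against 1090.2, 1205 and 1195 in Maver-1 (-0.75 ± 0.09, adjusted p = 9.3e-06). Each was lower in Z-138 without overlap, at 0.587 and 0.596 of the Maver-1 level, and the second probe set of PSMD10 gave -0.68. PSMD9 did not pass at 0.14 ± 0.09. Among the activators, which cap the core in place of the regulatory particle, the nuclear PSME4 had 1446, 1403 and 1319.8 in Z-138, against 1816, 1971 and 2007 in Maver-1 (-0.47 ± 0.07, adjusted p = 6.9e-05). It was lower in Z-138, and PSME1 and PSME3 did not pass at -0.09 ± 0.08 and 0.03 ± 0.09. Other probe sets of PSME3 gave 0.51, 0.41 and -0.23.

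Partner genes of the proteasome were read from lists of the pathway, and the counts below stand against 25.5% of all genes called higher and 34.8% called lower in Z-138. The 3 transcription regulators tested were all higher in Z-138. NFE2L1, the factor that raises proteasome genes when the protease is blocked, had 1740.1, 1563 and 2069 in Z-138, against 1006, 996 and 1198 in Maver-1 (0.74 ± 0.10, adjusted p = 4.4e-05). NFE2L2, the oxidative stress factor, differed by 0.44 ± 0.11, adjusted p = 0.00305, and NGLY1, the enzyme that removes sugars from NFE2L1, by 0.29 ± 0.11, adjusted p = 0.0298. Of 6 other assembly factors, PSMG3, a chaperone of the alpha ring, was higher in Z-138 by 0.69 ± 0.09. PAAF1, which holds the base off the core during assembly, was lower, with 194, 228 and 230.1 in Z-138, against 948, 973 and 1049.9 in Maver-1 (-2.17 ± 0.10, adjusted p = 1.4e-09). Its levels in the lines lay far apart. Of 11 other partners 3 were higher and 6 lower in Z-138 (against 60.2% of all genes called either way), among them TXNL1, a redox protein of the regulatory particle, at -1.39 ± 0.06, PSMA8, the alpha subunit known from testis, at -1.14 ± 0.14, PSMF1, a regulator that binds the core, at -0.66 ± 0.12, and AKIRIN2, which brings proteasomes into the nucleus, at 0.69 ± 0.18.

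Of the 3 immunoproteasome subunits PSMB9 was lower in Z-138 (log2 difference -0.37 ± 0.10), and PSMB8 and PSMB10 did not pass. Of 3 ubiquitin genes 2 were lower and 0 higher, led by UBA1, the main enzyme that activates ubiquitin, at -0.52 ± 0.08. Of 7 shuttle and segregase genes 1 was lower, VCP, the unfoldase that pulls tagged proteins out of complexes, at -0.48 ± 0.10. Of 5 heat shock genes 1 was higher, HSPH1 at 0.31 ± 0.06, and 2 were lower, BAG3 at -0.92 ± 0.16 and DNAJB1 at -0.28 ± 0.10.

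The knockdown comparison set each NIKsh culture with doxycycline against its untreated arm. No member was called (0 of 33, limma; 0.0433% of all genes were called), and 4 of 33 had an unadjusted p under 0.05, against 8.98% of all genes. The median change was -0.05 over the members and 0.01 over all genes. A negative change was found for 27 of 33 members, against 5579 of 11548 genes. All 95% intervals of the members lay between -0.64 and 0.40, and the median distance of a bound from its estimate was 0.18. The members with an unadjusted p under 0.05 were PSMC3, PSMB2, PSMD8 and the activator PSME1, which interferon induces.

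**Figure D2:**
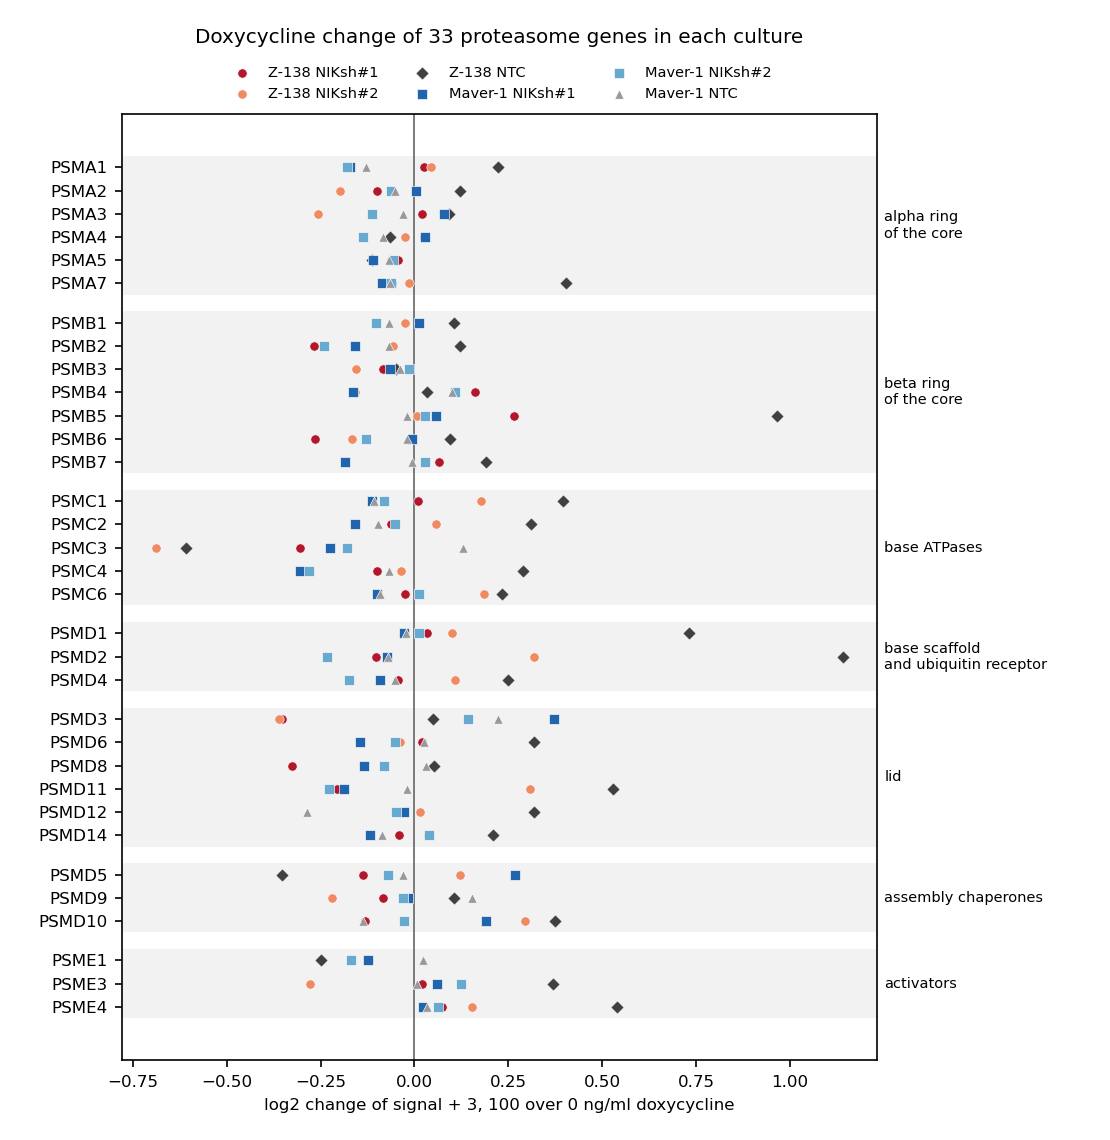
Doxycycline change of each of the 33 proteasome genes in each of the 6 cultures, as log2 of signal + 3 at 100 over 0 ng/ml, with genes grouped by role and 1 point per culture. The dark diamonds of Z-138 NTC lie farthest right for most genes, up to 1.14 for PSMD2, while the points of the other cultures lie between -0.36 and 0.37, apart from PSMC3 at -0.69 in Z-138 NIKsh#2.

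PSMC3, an ATPase of the base that contacts ubiquitin, had the lowest NIKsh change, -0.35 ± 0.13 (adjusted p = 0.45). Its signals in Z-138 NIKsh#1, NIKsh#2 and NTC were 724, 631 and 707 with doxycycline, against 895, 1018 and 1079.9 without it. In the same cultures of Maver-1 they were 943, 1018 and 924 with doxycycline, against 1103, 1153 and 845 without it. The signal was lower with doxycycline in 5 of 6 cultures, Z-138 NTC included, and higher in Maver-1 NTC.

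PSMB2 had signals of 1449, 1706 and 2169 with doxycycline, against 1744, 1775 and 1992 without it, in Z-138 NIKsh#1, NIKsh#2 and NTC. In Maver-1 it had 2132, 2149 and 2246 with doxycycline, against 2382, 2538 and 2352 without it. It was lower with doxycycline in all 4 NIKsh cultures and in Maver-1 NTC, and higher in Z-138 NTC (NIKsh change -0.18 ± 0.07, limma, adjusted p = 0.449). PSMC4 changed in the NIKsh cultures by a mean of -0.18 ± 0.10, PSMD8, a lid subunit, by -0.17 ± 0.07 and PSME1 by -0.17 ± 0.07. None of these passed. The highest NIKsh changes were 0.09 ± 0.14 for PSMB5, 0.08 ± 0.12 for PSMD10 and 0.08 ± 0.09 for PSME4.

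In the mean of the 2 NTC cultures 27 of 33 members had a positive change, against 6468 of 11548 genes. In Maver-1 NTC alone 9 members were positive and 24 negative. No member passed in the NTC comparison (limma, 0% of all genes called). At an unadjusted p under 0.05 there were 4 members, against 3.35% of all genes: PSMD2 at 0.53 ± 0.23, PSMB5 at 0.47 ± 0.20, PSMD1 at 0.36 ± 0.15 and PSME4 at 0.29 ± 0.12, each with an adjusted p of 0.895. These values came from 1 culture. Without Z-138 NTC the changes were -0.07 for PSMD2, -0.02 for PSMB5 and -0.02 for PSMD1.

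In Z-138 NTC the median member change was 0.21, against 0.07 over all genes. There 27 members were positive and 6 negative, against 6435 and 5097 of 11548 genes. The base scaffold and ubiquitin receptor group had a median of 0.73, the activators 0.37, the ATPases 0.29, the lid 0.26, and the alpha ring, the beta ring and the chaperones 0.11 each. In the other 5 cultures the member median lay between -0.09 and -0.02. The ACTB ratio of Z-138 NTC was 6.34 with doxycycline, against 2.33 without it, the widest gap of the Z-138 cultures. In Maver-1 NTC the corresponding ratios were 4.43 and 6.88.

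PSMD2 showed the pattern most clearly. Its signals in Z-138 NIKsh#1, NIKsh#2 and NTC were 1116, 1385 and 1868 with doxycycline, against 1198, 1111 and 846 without it. In Maver-1 they were 1653, 1461 and 1831 with doxycycline, against 1739.9, 1718 and 1924 without it. With doxycycline Z-138 NTC reached the level of the Maver-1 cultures, and without it this culture was the lowest of all 6.

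PSMB5 had signals of 1141, 941 and 1302 with doxycycline, against 948, 937 and 665 without it, in Z-138 NIKsh#1, NIKsh#2 and NTC. In Maver-1 it had 1001, 979.7 and 1024 with doxycycline, against 962, 960.3 and 1037 without it. Maver-1 was nearly flat, and in Z-138 the untreated NTC array was low and the treated one high. PSMD1 had 1811, 1833 and 2462 with doxycycline, against 1769.7, 1712 and 1481 without it, in the same Z-138 cultures. In Maver-1 it had 1893, 2107 and 2167 with doxycycline, against 1931, 2088 and 2199 without it. Its second probe set gave 0.68 in Z-138 NTC, close to the 0.73 of the one used.

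PSME4 had 1522, 1562 and 1920.2 with doxycycline, against 1446, 1403 and 1319.8 without it in Z-138 NIKsh#1, NIKsh#2 and NTC. In Maver-1 it had 1845, 2058 and 2056 with doxycycline, against 1816, 1971 and 2007 without it. The 2 other probe sets of PSME4 gave -0.04 and -0.62 in Z-138 NTC, against 0.54 for the one used.

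**Figure D3:**
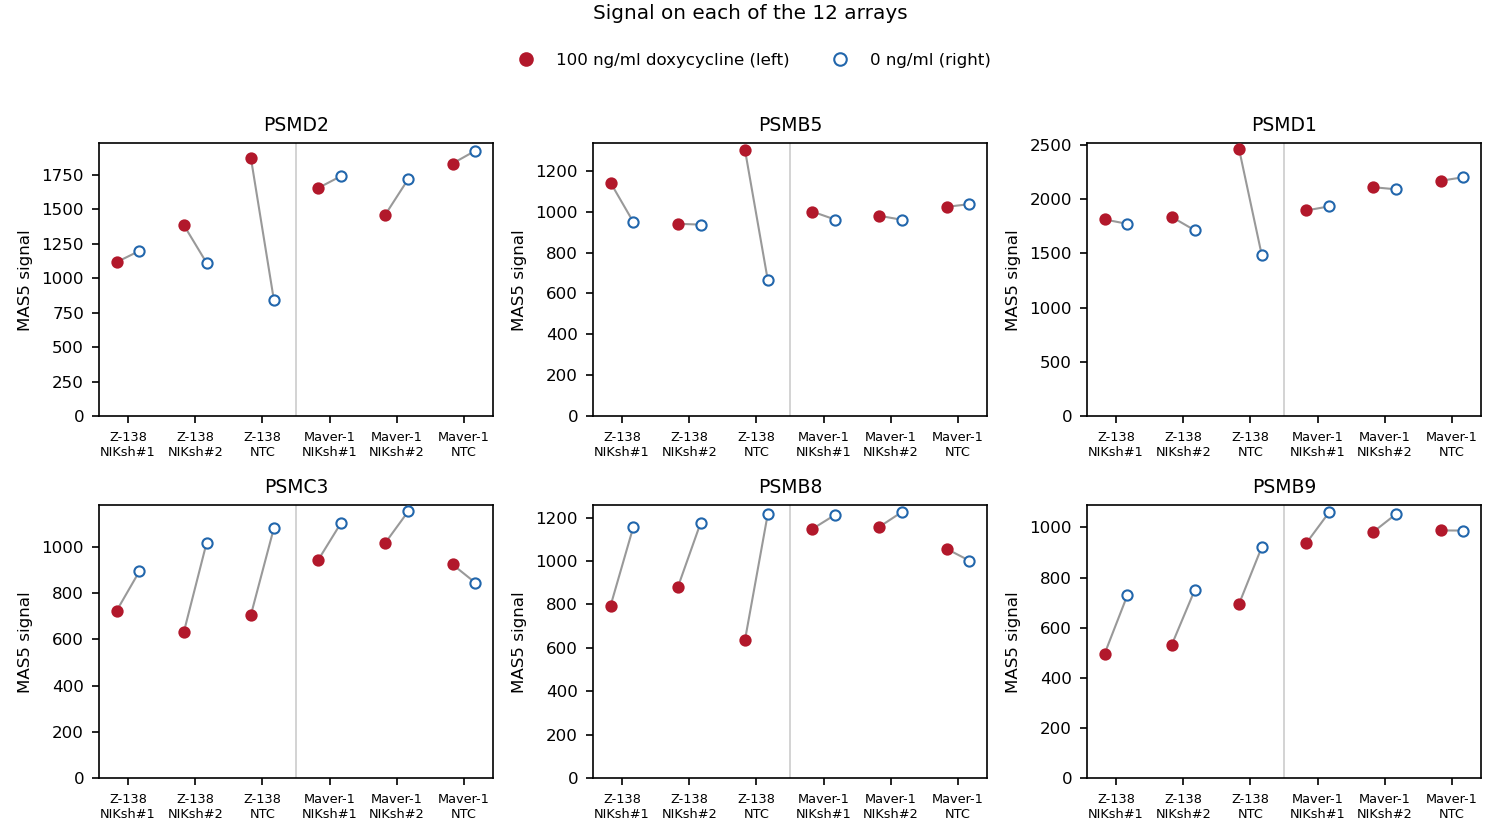
MAS5 signal of PSMD2, PSMB5, PSMD1 and PSMC3 and of the immunoproteasome genes PSMB8 and PSMB9 on each of the 12 arrays, with the doxycycline arm of a culture (filled) left of its untreated arm (open) and a line joining them. PSMD2, PSMB5 and PSMD1 separate mainly in Z-138 NTC, whereas PSMC3, PSMB8 and PSMB9 are lower with doxycycline in all 3 Z-138 cultures.

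The difference between the NIKsh and NTC changes was negative for 30 of 33 members, against 6247 of 11548 genes. Its median was -0.15 over the members, against -0.03 over all genes. No member passed (limma, 0% of all genes called). At an unadjusted p under 0.05 there were 0 members, against 5.43% of all genes. PSMD2 had the lowest difference, -0.56 ± 0.28, and PSMD5 the highest, 0.24 ± 0.18. Without Z-138 NTC the median was 0.0003 and PSMD2 was at 0.05. Before induction, NIKsh cultures minus NTC cultures had a median member difference of -0.05 with 0 members passing (limma, 0% of all genes called; 0 members at an unadjusted p under 0.05, against 4.78% of all genes). PSMB5 was the highest at 0.20 ± 0.12, and its difference was 0.50 in a fit without the Maver-1 NTC array. That fit had 1 untreated NTC array, with a signal of 665, which was assumed to vary like the other groups.

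Taking the 3 cultures of a line together whatever their hairpin, 0 of 33 members passed in Z-138, where 1.26% of all genes were called, 0.719% higher and 0.537% lower. At an unadjusted p under 0.05 there were 7 members, or PSMC3, PSME1, PSME4, PSMB5, PSMD2, PSMD1 and PSMC1, against 21.4% of all genes. PSMC3 had the smallest adjusted p, with -0.53 ± 0.11 and changes of -0.31, -0.69 and -0.61 in NIKsh#1, NIKsh#2 and NTC (adjusted p = 0.0531). It passed with a higher filter on signal, which tested fewer genes (adjusted p = 0.0487), and without Z-138 NIKsh#1 (-0.65, adjusted p = 0.0213). Without that culture PSMD2 (0.73) and PSMD11 (0.42) passed as well. That fit called 720 of 11548 genes higher and 314 lower, against 83 and 62 with all cultures. The other probe set of PSMD11 gave -0.83 in Z-138 NIKsh#2 and -1.03 in Z-138 NTC.

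PSME1 had 1882, 1924 and 2191 with doxycycline, against 2237, 2093 and 2602 without it in Z-138 NIKsh#1, NIKsh#2 and NTC, lower in all 3 cultures (-0.21 ± 0.06, adjusted p = 0.119). PSMD2 changed by a mean of 0.45 ± 0.18, PSMB5 by 0.41 ± 0.15 and PSMD1 by 0.29 ± 0.12, with adjusted p-values of 0.17 to 0.191. Without Z-138 NTC these means were 0.11, 0.14 and 0.07. PSME4, at 0.26 ± 0.09, came to -0.01 when its probe sets were averaged. In Maver-1 0 members passed (limma, 0% of all genes called), 1 had an unadjusted p under 0.05, PSMA1 at -0.16 ± 0.06, and the median was -0.06.

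PSMD3, a lid scaffold, was lower with doxycycline in both Z-138 NIKsh cultures. It was higher in Z-138 NTC and in every Maver-1 culture, NTC included. Its signals were 358, 412 and 528 with doxycycline, against 458, 530.3 and 509.5 without it in Z-138 NIKsh#1, NIKsh#2 and NTC. In Maver-1 they were 653, 586 and 647 with doxycycline, against 504, 531 and 554 without it. The Z-138 change minus the Maver-1 change was -0.61 in the NIKsh cultures alone. With the NTC cultures included it was -0.47 ± 0.18 (limma, adjusted p = 0.324). Neither PSMD3 nor any other member passed this comparison (0 of 33, limma, 0% of all genes called; 5 members at an unadjusted p under 0.05, against 13.7% of all genes). The other 4 were PSMA1 at 0.26 ± 0.08, PSMC1 at 0.29 ± 0.11, PSMC3 at -0.44 ± 0.16 and PSMD2 at 0.58 ± 0.25.

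The NIKsh cultures of each line were also taken alone. In Z-138 0 of 33 members passed (2.14% of all genes), 6 had an unadjusted p under 0.05, against 16.2% of all genes, and PSMC3 was lowest at -0.50 ± 0.13 (adjusted p = 0.0932). PSMC3 passed in a fit without the culture block, at -0.59 (limma, adjusted p = 0.0433). That fit called 213 of 11548 genes higher and 210 lower, against 122 and 125 in the main fit. The change of PSMC3 was -0.69 without Z-138 NIKsh#1 and -0.31 without Z-138 NIKsh#2. Without Maver-1 NIKsh#1 or NIKsh#2 it stayed at -0.50. Each fit with a culture left out had 1 NIKsh culture in a line, and the spread came from the other groups, so no p-value is given. In Maver-1 0 members passed (0% of all genes), 3 had an unadjusted p under 0.05, against 3.97% of all genes, and PSMC4 was lowest at -0.29 ± 0.11. Z-138 minus Maver-1 gave 0 passing members (0.121% of all genes) and 2 at an unadjusted p under 0.05, against 8.59% of all genes.

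By hairpin, NIKsh#1 and NIKsh#2 each gave 0 passing members (limma, 0% of all genes), 0 at an unadjusted p under 0.05 (against 4.23% and 5.3% of all genes), and medians of -0.06 and -0.05. Their difference gave 0 passing members as well and 0 at an unadjusted p under 0.05 (1.75% of all genes), with 95% intervals between -0.92 and 0.81. Averaging all 6 cultures gave 0 passing members (limma, 0% of all genes) and 2 at an unadjusted p under 0.05, against 7.27% of all genes.

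The inducible immunoproteasome subunits, which replace the cutting subunits of the core in immune cells, were lower with doxycycline in Z-138. PSMB8 had 795, 879 and 636 with doxycycline, against 1159, 1175 and 1217 without it in Z-138 NIKsh#1, NIKsh#2 and NTC, and fell by 0.63 ± 0.11 (adjusted p = 0.0438). PSMB9 had 496, 532 and 694 with doxycycline, against 730.3, 749 and 922 without it, and fell by 0.48 ± 0.09 (adjusted p = 0.0456). Both were lower with doxycycline in every Z-138 culture, the NTC culture included, and the ACTB ratio was higher in each of them. PSMB10 did not pass at -0.43 ± 0.13.

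These 2 calls were not stable: over the settings tried the adjusted p ran from 0.021 to 0.205 for PSMB8 and from 0.0227 to 0.218 for PSMB9. The changes themselves lay between -0.74 and -0.48 for PSMB8, nearest 0 without Z-138 NTC, and between -0.52 and -0.45 for PSMB9. In Maver-1 PSMB8 had 1147, 1157 and 1056 with doxycycline, against 1212, 1226 and 1002 without it and PSMB9 had 936, 982 and 988 with doxycycline, against 1059, 1054 and 987 without it, with neither passing. The Z-138 change minus the Maver-1 change did not pass for PSMB8 (-0.60 ± 0.15, adjusted p = 0.225). In the NIKsh cultures alone PSMB9 changed by -0.33 ± 0.11 (adjusted p = 0.409) and 0 of the 3 subunits passed.

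Of the other lists in Z-138, 1 of 5 heat shock genes rose and 0 fell (0.719% and 0.537% of all genes): HSP90AA1, a major chaperone, had 6523, 5963 and 5994 with doxycycline, against 5854, 5059 and 5205 without it (0.20 ± 0.04, adjusted p = 0.0452), and after quantile normalization its change was 0.03. It did not pass without the filter, with averaged probe sets, after median centring or in fits without the culture block or the variance trend. None of the 6 assembly, 11 partner, 3 transcription, 3 ubiquitin and 7 shuttle genes passed. Among the genes of these lists, the largest change in the NIKsh cultures was that of PSMA8, 0.52 ± 0.13 (limma, adjusted p = 0.239), and NFE2L1 was at -0.0039 ± 0.07. PSMA8 changed by 0.36 in Z-138 NTC and by -0.29 in Maver-1 NTC.

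The members' signals went together from array to array. With the mean of each line taken off, the median Pearson correlation over the 528 pairs of members was 0.44 across the 12 arrays, against 0.02 over all pairs of genes tested. These arrays share cultures and lines. Without the arrays of Z-138 NTC, a choice made after seeing the data, it was 0.20, against 0.02 over all pairs. The highest median correlation with the other members was that of PSMA7 (0.69) and PSMD14 (0.67), and PSMD5 (-0.51) and PSMC3 (-0.12) lay below 0. The median size of the members' changes with doxycycline in Z-138 NIKsh#1, NIKsh#2 and NTC was 0.07, 0.12 and 0.25, against 0.21, 0.27 and 0.32 over all genes and 0.17, 0.22 and 0.29 over the 7631 genes past the higher filter on signal, which all members pass. In Maver-1 it was 0.111, 0.080 and 0.066, against 0.14, 0.18 and 0.12 over all genes and 0.117, 0.14 and 0.095 over those 7631. The members' median was the lower one in each culture, by little in Maver-1 NIKsh#1.

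Different probe sets of a gene did not always match. Of 19 members with several probe sets past the filter, 10 had the same sign for the mean doxycycline change in Z-138 in all of them and 9 did not. For the untreated difference between the lines, 12 had the same sign and 7 did not. PSMD11 spread most. Its probe set used gave -0.21, 0.31 and 0.53 in Z-138 NIKsh#1, NIKsh#2 and NTC, and its other one -0.38, -0.83 and -1.03. Which of these reads PSMD11 transcripts better was not tested.

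**Figure D4:**
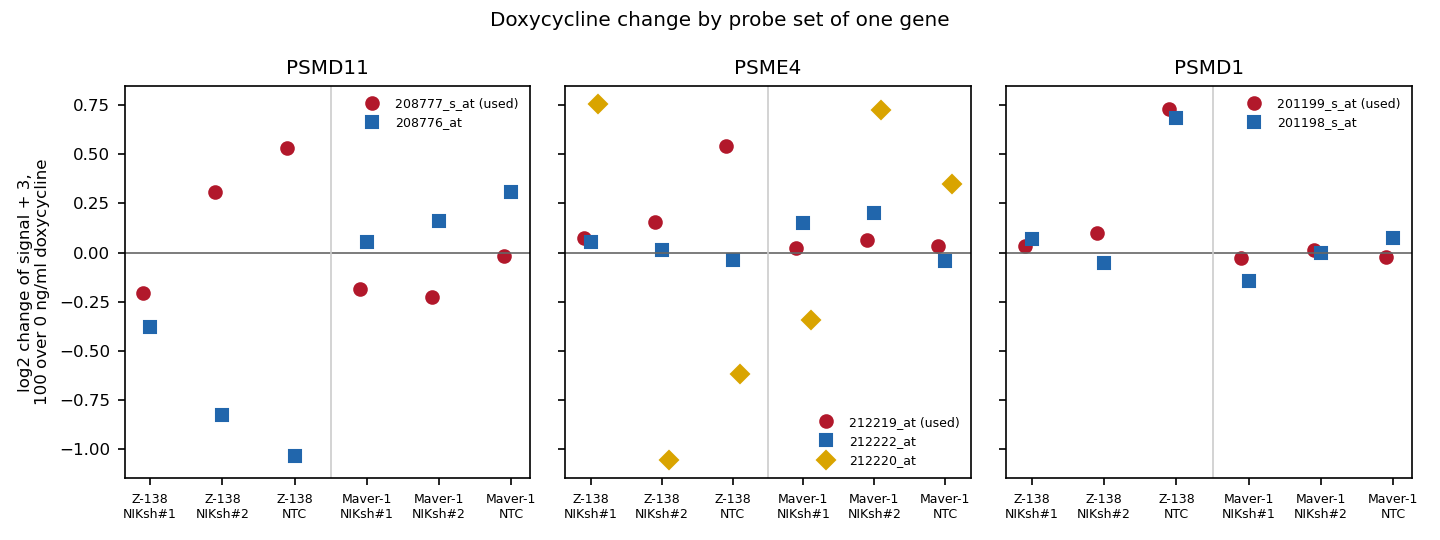
Doxycycline change in each of the 6 cultures, as log2 of signal + 3 at 100 over 0 ng/ml, for every probe set of PSMD11, PSME4 and PSMD1 past the filter, with the one used marked. The probe sets of PSMD1 lie close together, up to 0.73 and 0.68 in Z-138 NTC, while those of PSMD11 lie at 0.53 and -1.03 there.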

How the data were processed

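RNA of 6 cell line cultures, each split between 2 media, was amplified, labelled with biotin and read on Affymetrix arrays, per the labels' protocols. The deposited values were linear signal intensities, and the submitters' processing notes name MAS5. After trimming 2 percent of probe sets at each end, every array averaged about 150.02, and no further normalization was applied. Of 54675 probe sets, 41097 had 1 gene symbol, 1801 several and 11777 none in the annotation used here; each gene was read by its single-symbol probe set of highest mean log2 signal. Values were taken to log2(signal + 3), which understates changes of dim genes, and 11548 of 19775 genes had a mean signal of at least 12.55, the median over arrays of their medians, and were tested. The tests used limma 3.58.1 (R 4.3.3) with an intensity trend and culture as a fixed block, since per the labels each culture was split between media. Deviations from the group mean correlated between the arms of a hairpin culture at -0.038 (Z-138) and 0.20 (Maver-1). The 6 untreated arrays were compared between lines and, with line as a term, between constructs. Tables and figures used Python 3.11.15, pandas 2.3.3 and matplotlib 3.10.9. The fit was tested on simulated data. Every member could be named, of the pathway lists those that passed and the largest changes. Members, lists and alternatives were chosen with earlier results of these data known. Promoters and symbols follow RefSeq on GRCh38.p14.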

Additional observations from a re-analysis of the deposited data

Results flagged for a closer look

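The doxycycline changes of the 33 members and their median were compared over the 6 cultures, and again over the 4 NIKsh cultures, for 1 culture far from the others by Dixon's ratio at 95%. Chance gives about 1 in 20 such sets, and here it was 6 of 34 over the 6 cultures and 2 of 34 over the 4 NIKsh cultures. Members share arrays, so these sets are not independent.

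In 6 cases the culture apart was Z-138 NTC. The change there was 0.97 for PSMB5, 0.73 for PSMD1, 0.54 for PSME4, 0.40 for PSMA7 and 0.32 for PSMD6, and the median of the members was 0.21. All of these were the highest of the 6 cultures. The ACTB 3′ to 5′ ratio of that culture was 6.34 with doxycycline, against 2.33 without it, and its part was not tested.

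PSMB7, the trypsin-like site, stood at -0.18 in Maver-1 NIKsh#1, below the other 3 NIKsh cultures, which lay between 0.03 and 0.07. PSMD11 stood at 0.31 in Z-138 NIKsh#2, above the other 3, which lay between -0.23 and -0.19, and its other probe set gave -0.83 in the same culture.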

How the results depend on the processing

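All 19 members called between the untreated lines kept their sign under every setting tried, and 13 to 20 members were called. Median centring gave 10 higher, 8 lower and a median of 0.040, sharing 14 of the 19 calls, and a fit without the variance trend gave 3 higher. Averaging probe sets moved the member median to 0.0023 for the Z-138 change minus the Maver-1 change, to -0.015 for the same difference in NIKsh cultures, to -0.017 for NIKsh#1 and to 0.0094 for NIKsh#1 minus NIKsh#2, and turned PSME4 to -0.013 in Z-138. Median centring moved the NIKsh medians to -0.027 in Z-138, -0.023 in Maver-1, -0.012 for their difference and 0.018 for NIKsh#1 minus NIKsh#2, and quantile normalization moved the Z-138 one to -0.040. Members lower numbered 1 in Z-138 under the higher filter, which tested 7631 genes, and 1 in Z-138 NIKsh cultures with no replicate block. With 1 culture left out, the NIKsh minus NTC median ran from -0.24 to 0.000313, lower members in Z-138 from 0 to 1 and higher ones from 0 to 2, lower members in Z-138 NIKsh cultures from 0 to 1 with medians of -0.043 to -0.0084, the Maver-1 NIKsh median from -0.085 to -0.055, NIKsh#1 minus NIKsh#2 from -0.059 to -0.010, and higher members in untreated NIKsh minus NTC from 0 to 1. NTC changes ran from -0.071 to 1.14 for PSMD2, -0.019 to 0.97 for PSMB5 and -0.021 to 0.73 for PSMD1, each lowest without Z-138 NTC, and NIKsh minus NTC from -1.16 to 0.048 for PSMD2, highest without it. The causes were not tested, and fewer arrays also give less precision. Without the culture block PSMC3 was called lower in Z-138 NIKsh cultures (-0.59, limma adjusted p = 0.0433). In that fit 213 genes were called higher and 210 lower, against 122 and 125 with the block. No other member's call changed, and PSMB9 lost its call in Z-138. No detection calls were used, and the number of arrays limits every value.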
